A study of Mus musculus with 8 samples.

Results

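The 7 caspase genes *Casp1*, *Casp2*, *Casp4*, *Casp6*, *Casp8*, *Casp9* and *Casp12* were taken by gene symbol from a table of 54532 genes and were compared between *Zeb1*-/- EpCAM+ HSPCs and *Zeb1*-/- EpCAM- HSPCs. *Casp2*, *Casp4*, *Casp6* and *Casp12* were higher in the EpCAM+ fraction, from 1.25-fold for *Casp2* to 2.56-fold for *Casp12*, while *Casp1*, *Casp8* and *Casp9* did not pass the test in either direction. RNA-Seq libraries were available from 4 samples of each fraction, sorted from the bone marrow of C57BL/6 mice aged 8 to 12 weeks as LSK cells (Lin- C-KIT+ SCA-1+, the compartment that holds hematopoietic stem and progenitor cells). All mice were *Zeb1* fl/fl;*Mx1-Cre*+ and had been given pIpC, a double-stranded RNA mimic that induces Cre from the interferon-responsive *Mx1* promoter, and RNA was taken 14 days after the last dose, with 4 mice per genotype in the submitters' description. Both fractions therefore came from mice with induced *Zeb1* deletion and pIpC exposure, and the extent of deletion in each fraction was not measured here. No library came from a control mouse, and *Mx1-Cre* also acts outside blood cells. The fractions were sorted by surface EpCAM, an epithelial adhesion glycoprotein.

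Caspases are cysteine proteases that cut their targets after aspartate. Initiator caspases are switched on when large complexes bring them together: the apoptosome for caspase-9, the death-inducing signalling complex of death receptors for caspase-8 and the PIDDosome for caspase-2. Executioner caspases such as caspase-6 then cleave structural proteins, and inflammatory caspases mature cytokines and open gasdermin pores in place of apoptosis. In hematopoietic cells, caspase-8 is also known to hold back necroptosis through RIPK3, and inflammatory caspases are best known from myeloid cells. Caspase activity is set mainly by cleavage of the inactive proenzyme, which mRNA counts do not measure.

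Counted reads were 15225714 to 17073546 per EpCAM+ library and 14114491 to 15929923 per EpCAM- library. *Epcam* lay at 160.5 to 234.1 CPM (counts scaled to the TMM-adjusted library size) in EpCAM+ libraries and at 1.25 to 8.99 CPM in EpCAM- libraries. *Zeb1* reads were counted at 14.8 to 23.7 CPM and 9.49 to 14.0 CPM, and a count over the whole gene does not measure the deletion. LSK markers were expressed in both fractions, but the fractions differed in other cell type markers too. The counts of called markers that follow stand against 42.6% of all tested genes called (21.8% higher, 20.8% lower). Counts near these shares are no result about a cell type. The summed CPM of 10 LSK and stem cell markers, of which 9 passed the test, was 2460 to 2843 in EpCAM+ and 1190 to 1821 in EpCAM- libraries. The 10 neutrophil lineage markers, 6 of them lower in EpCAM+, summed to 1066 to 1824 against 11867 to 18538 CPM, most of it from *Mpo* (8739 to 12205 CPM in EpCAM- libraries). The 6 erythroid markers (5 lower, 1 higher) summed to 50.9 to 95.0 against 351.2 to 792.2 CPM, and the 5 mast cell and basophil markers (3 lower) to 68.3 to 91.2 against 230.8 to 478.9 CPM. The 8 conventional dendritic cell markers (6 of 7 tested higher, with *Flt3* also among the LSK markers) summed to 306.1 to 667.3 against 156.4 to 267.9 CPM, and the 6 plasma cell markers (2 of 4 tested higher) to 384.2 to 3950 against 169.3 to 255.9 CPM. Of the plasma cell markers, *Jchain* was at 199.0 to 3525 CPM in EpCAM+ and at most 0.273 CPM in EpCAM- libraries. The EpCAM- sum was nearly all *Xbp1* (166.6 to 249.4 CPM), which was not called. The sums of monocyte, B cell, plasmacytoid dendritic, T and natural killer cell and megakaryocyte markers (6 to 10 genes each) overlapped between the fractions, although some of their members were called. Of 7 tested monocyte markers, 3 were lower (*Csf1r*, *Cx3cr1* and *Adgre1*, log2 fold changes -3.71, -3.09 and -2.5), and of 5 tested B cell markers, 2 were higher (*Ms4a1* at 7.10 and *Cd79a* at 3.26). Of the plasmacytoid dendritic, T and natural killer cell and megakaryocyte markers, 1 each was higher. *Pax5* and *Klk1* were at 0 in all 8 libraries. In such bulk samples, fewer cells of a type and less RNA per cell cannot be told apart, and the part of these differences in the caspase results was not tested.

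All 7 caspase genes passed the filter on low counts, together with 13560 genes in all. By edgeR's quasi-likelihood test, 4 of the 7 were called different at an adjusted p under 0.05, against a background of 42.6% of all tested genes. The 4 were higher in EpCAM+ libraries, where 21.8% of tested genes were called higher, and 0 were called lower, where 20.8% of tested genes were; at an unadjusted p under 0.05 and with DESeq2 the number of lower caspase genes was also 0. The fractions did not overlap for the same 4 genes, against 40.1% of tested genes without overlap. The median log2 fold change was 0.32 over the 7 genes and 0.02 over all tested genes, while the median size regardless of sign was 0.319 and 0.326, so that the caspase genes differed about as much as the typical tested gene.

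**Figure D1:**
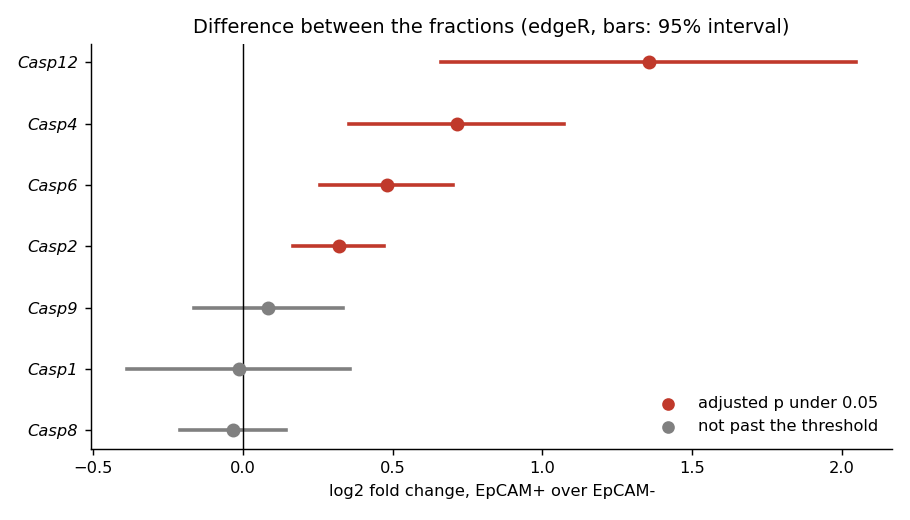
Log2 fold change of each caspase gene, EpCAM+ over EpCAM- (x axis), with its 95% interval from edgeR as a bar; red marks an adjusted p under 0.05. *Casp12*, *Casp4*, *Casp6* and *Casp2* lie to the right of 0 with their intervals, from 1.36 down to 0.32, and the intervals of *Casp9*, *Casp1* and *Casp8* include 0.

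Among the initiators, *Casp2* (ENSMUSG00000029863, chr6:42264985-42282508, GRCm38.p6, plus strand) encodes the caspase that the PIDDosome activates, with known roles after DNA damage and extra centrosomes. Its levels were 133.7, 128.1, 129.9 and 134.9 CPM in EpCAM+ replicates 1 to 4 and 113.6, 95.9, 108.5 and 104.1 CPM in EpCAM- replicates 1 to 4. Every EpCAM+ library lay above every EpCAM- library, and the EpCAM+ libraries were close together, with a coefficient of variation of 2.42%. The means were 131.7 ± 3.19 and 105.5 ± 7.50 CPM (SD, n = 4 each), a log2 fold change of 0.32 with an SE of 0.07 and an adjusted p of 0.00445 (edgeR). This is the smallest of the 4 called differences, at 1.25-fold with a 95% interval of 1.12 to 1.39.

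*Casp9* (ENSMUSG00000028914, chr4:141793612-141815976, plus strand), the initiator of the mitochondrial pathway, was low in both fractions. It ranged from 16.7 to 22.0 CPM in EpCAM+ and from 17.1 to 19.2 CPM in EpCAM- libraries, and the ranges overlapped throughout. The means were 19.1 ± 2.44 and 18.0 ± 0.895 CPM (SD, n = 4 each), and the log2 fold change of 0.08 (SE 0.11, adjusted p = 0.563, edgeR) had a 95% interval from -0.16 to 0.33. The last part of *Casp9* overlaps *Ctrc* and *Cela2a* on the other strand, and both had 0 counts in every library.

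*Casp8* (ENSMUSG00000026029, chr1:58795374-58847503, plus strand), the death receptor initiator, had the most reads of the 7 genes. Its levels were 189.8, 191.2, 177.9 and 185.4 CPM in EpCAM+ replicates 1 to 4 and 203.4, 209.4, 180.3 and 169.1 CPM in EpCAM- replicates 1 to 4. The EpCAM- libraries fell on both sides of the EpCAM+ libraries, with replicates 1 and 2 above them all. The means of 186.1 ± 5.96 and 190.6 ± 19.0 CPM (SD, n = 4 each) gave a log2 fold change of -0.03 (SE 0.08, adjusted p = 0.752, edgeR), with a 95% interval from -0.21 to 0.14. The annotated transcript *Gm37760*, of unknown function, lies inside *Casp8* on the same strand and had 12 to 33 counts per library.

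*Casp6* (ENSMUSG00000027997, chr3:129901425-129914103, plus strand) encodes an executioner caspase best known for cleaving lamin A. Its levels were 123.9, 97.1, 91.0 and 101.0 CPM in EpCAM+ replicates 1 to 4 and 78.1, 77.3, 73.3 and 67.2 CPM in EpCAM- replicates 1 to 4. Each EpCAM+ library was above each EpCAM- library, and EpCAM+ replicate 1 stood above its other replicates. The means were 103.2 ± 14.4 and 74.0 ± 4.99 CPM (SD, n = 4 each), 1.39-fold (95% interval 1.20 to 1.63), with a log2 fold change of 0.48, an SE of 0.10 and an adjusted p of 0.00392 (edgeR). EpCAM+ replicate 1 was also the library with a plasma cell marker sum of 3950 CPM, against 384.2 to 666.4 CPM in the other EpCAM+ libraries. Without that library the log2 fold change of *Casp6* was 0.37, with an adjusted p of 0.00762 (edgeR).

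**Figure D2:**
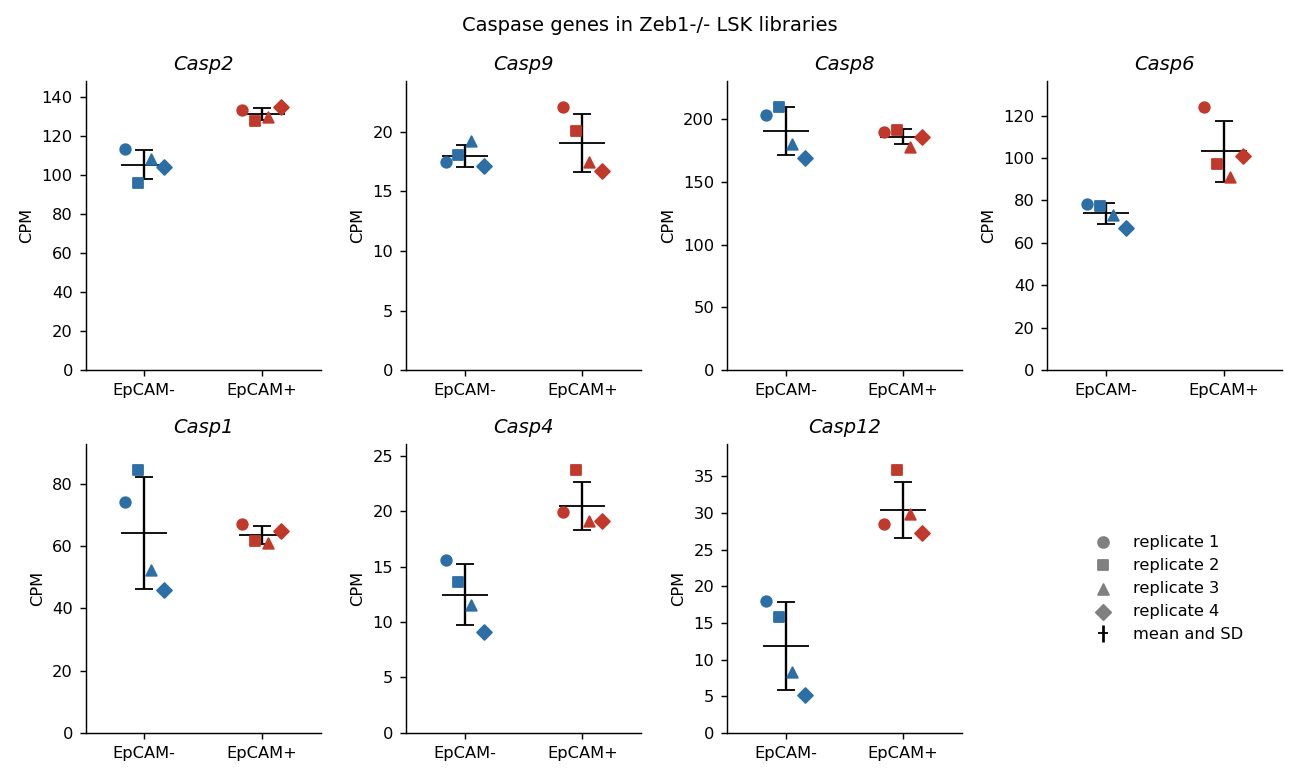
CPM of each caspase gene in every library, EpCAM- in blue and EpCAM+ in red, with the replicate number as the symbol and the mean and SD in black; each y axis starts at 0. The fractions are separate for *Casp2*, *Casp6*, *Casp4* and *Casp12*, and the EpCAM- libraries of *Casp1* lie both above (84.4 CPM) and below (45.9 CPM) all EpCAM+ libraries.

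The inflammatory caspases *Casp1*, *Casp4* and *Casp12* lie side by side on chromosome 9, all on the plus strand, with gaps of 1562 bases between *Casp1* and *Casp4* and 8646 bases between *Casp4* and *Casp12*. The log2 fold change between the fractions was -0.01 for *Casp1*, 0.71 for *Casp4* and 1.36 for *Casp12*, and differences between the genes were not tested. For comparison with a CG-rich and a CG-poor window of initiator genes, the windows of the cluster are printed with those of *Casp2* and *Casp8*. They are RefSeq promoter windows (GRCm38.p6, 250 bases before to 50 bases after the annotated start, plus strand, 5′ to 3′). The capitals mark CG dinucleotides, the bases that DNA methylation uses.
Casp1 (chr9:5298267-5298566): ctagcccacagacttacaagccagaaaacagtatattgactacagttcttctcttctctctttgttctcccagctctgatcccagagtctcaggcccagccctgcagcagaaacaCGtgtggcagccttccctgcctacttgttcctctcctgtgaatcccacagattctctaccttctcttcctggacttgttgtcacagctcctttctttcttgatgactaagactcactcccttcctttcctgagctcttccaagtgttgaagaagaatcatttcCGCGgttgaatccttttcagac
Casp4 (chr9:5308599-5308898): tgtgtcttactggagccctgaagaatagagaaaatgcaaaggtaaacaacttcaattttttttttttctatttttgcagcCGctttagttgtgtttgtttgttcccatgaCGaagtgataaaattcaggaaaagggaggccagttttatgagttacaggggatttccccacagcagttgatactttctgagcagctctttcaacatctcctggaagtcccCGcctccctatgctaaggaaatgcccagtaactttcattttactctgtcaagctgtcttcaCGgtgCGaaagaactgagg
Casp12 (chr9:5345226-5345525): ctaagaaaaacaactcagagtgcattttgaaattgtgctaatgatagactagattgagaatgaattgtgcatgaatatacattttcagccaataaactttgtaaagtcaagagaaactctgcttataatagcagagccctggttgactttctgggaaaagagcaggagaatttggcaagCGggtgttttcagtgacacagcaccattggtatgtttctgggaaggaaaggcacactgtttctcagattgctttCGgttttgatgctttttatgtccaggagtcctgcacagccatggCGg
Casp2 (chr6:42264735-42265034): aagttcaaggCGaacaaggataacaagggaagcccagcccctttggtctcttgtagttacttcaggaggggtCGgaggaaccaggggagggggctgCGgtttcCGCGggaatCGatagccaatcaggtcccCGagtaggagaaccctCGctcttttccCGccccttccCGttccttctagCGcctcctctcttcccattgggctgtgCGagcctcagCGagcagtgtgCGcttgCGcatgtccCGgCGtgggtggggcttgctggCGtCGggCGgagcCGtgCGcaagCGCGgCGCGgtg
Casp8 (chr1:58802252-58802551): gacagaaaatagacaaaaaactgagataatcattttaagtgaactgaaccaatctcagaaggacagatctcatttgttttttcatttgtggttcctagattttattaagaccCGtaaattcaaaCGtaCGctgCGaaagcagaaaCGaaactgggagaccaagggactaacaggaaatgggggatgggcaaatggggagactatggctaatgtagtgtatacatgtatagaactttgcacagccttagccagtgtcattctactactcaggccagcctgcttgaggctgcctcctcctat

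RefSeq windows were found for all 7 genes. They held 3 CG dinucleotides in *Casp1*, 5 in *Casp4* and 3 in *Casp12*, below the median of 7 over 32851 promoter windows, and 5 in *Casp8*. A second RefSeq window of *Casp4* (chr9:5308610-5308909), not printed, also held 5. The RefSeq window of *Casp8* (from 58802252) lies inside the gene as given above (from 58795374), and the bases at that gene start were not examined. The window of *Casp2* held 26, that of *Casp9* 28 and that of *Casp6* 16, against an upper quartile of 20 over all windows. CG-poor windows thus included both called genes (*Casp4*, *Casp12*) and genes that were not (*Casp1*, *Casp8*), as did the CG-rich ones. The windows were also searched on both strands for the E-box CACCTG or CAGGTG that ZEB1 binds (in 20.2% of all windows) and for the interferon-stimulated response element core GAAANNGAA or TTCNNTTTC (8.56%). The windows of the 7 genes held 0 matches to either, which says only that these letters are not in these 300 bases.

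*Casp12* (ENSMUSG00000025887, chr9:5345430-5373032), an inflammatory subfamily member, showed the largest difference of the 7 genes. Its levels were 28.5, 35.8, 29.9 and 27.2 CPM in EpCAM+ replicates 1 to 4 and 18.0, 15.8, 8.33 and 5.22 CPM in EpCAM- replicates 1 to 4, the last resting on 71 counts. The fractions did not overlap, but the EpCAM- libraries spread widely, with a coefficient of variation of 51.1% against 12.5% in the EpCAM+ libraries. The means of 30.4 ± 3.80 and 11.8 ± 6.05 CPM (SD, n = 4 each) gave a log2 fold change of 1.36 (SE 0.31, adjusted p = 0.00639, edgeR), which is 2.56-fold with a 95% interval of 1.58 to 4.13. Leaving out single libraries gave log2 fold changes of 1.11 (without EpCAM- replicate 4) to 1.63 (without EpCAM- replicate 1), all past the threshold.

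*Casp4* (ENSMUSG00000033538, chr9:5308828-5336783) encodes the mouse caspase-11, which senses cytosolic lipopolysaccharide in the noncanonical inflammasome. Its levels were 19.9, 23.7, 19.1 and 19.1 CPM in EpCAM+ replicates 1 to 4 and 15.6, 13.6, 11.5 and 9.12 CPM in EpCAM- replicates 1 to 4. The fractions were separate, and EpCAM+ replicate 2 was the highest library, as it was for *Casp12*. The means of 20.5 ± 2.19 and 12.5 ± 2.78 CPM (SD, n = 4 each) corresponded to a 1.64-fold difference (95% interval 1.28 to 2.10), with a log2 fold change of 0.71, an SE of 0.16 and an adjusted p of 0.00589 (edgeR).

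*Casp1* (ENSMUSG00000025888, chr9:5298517-5307265), the protease of canonical inflammasomes, is the exception of the cluster. Its levels were 67.0, 61.5, 60.9 and 64.8 CPM in EpCAM+ replicates 1 to 4 and 74.0, 84.4, 52.3 and 45.9 CPM in EpCAM- replicates 1 to 4. The 4 EpCAM+ libraries were within a narrow band, while EpCAM- replicates 1 and 2 lay above the band and replicates 3 and 4 below it. The coefficient of variation was 4.50% in EpCAM+ and 28.2% in EpCAM- libraries. With means of 63.6 ± 2.86 and 64.1 ± 18.1 CPM (SD, n = 4 each), the log2 fold change was -0.01 (SE 0.17, adjusted p = 0.955, edgeR), and its 95% interval from -0.39 to 0.36 leaves room for a difference the size of that of *Casp2*.

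The spread among EpCAM- libraries had a shared pattern. EpCAM- replicates 1 and 2 were above replicates 3 and 4 for *Casp1*, *Casp4*, *Casp12*, *Casp6* and *Casp8*, but not for *Casp2* or *Casp9*. The share of all tested genes with this order was not counted, so the order is no result about caspase genes as such. The summed CPM of the LSK and stem cell markers in EpCAM- replicates 1 to 4 was 1821, 1631, 1405 and 1190, which is the order of these libraries for *Casp12*, *Casp4* and *Casp6*. The monocyte sum (178.5, 152.8, 141.5 and 106.1 CPM) had the same order, so the match was not particular to LSK markers. The T and natural killer cell sum (885.8, 830.3, 791.9 and 685.4 CPM) also had it. That sum was nearly all *Nkg7* (684.1 to 883.3 CPM in EpCAM- libraries) and does not stand for T cells. In EpCAM+ replicates 1 to 4 the LSK and stem cell sum was 2674, 2463, 2843 and 2460 CPM and did not follow the order of *Casp12*, which was highest in replicate 2. The neutrophil lineage sum in EpCAM- replicates 1 to 4 was 18538, 13676, 15320 and 11867 CPM. Their conventional dendritic sum (244.5, 267.9, 184.9 and 156.4 CPM) had the order of *Casp1* and *Casp8*. So had their plasmacytoid dendritic, B cell and plasma cell sums. The erythroid sum ran the other way (377.4, 351.2, 669.2 and 792.2 CPM in EpCAM- replicates 1 to 4). The megakaryocyte sum and the mast cell and basophil sum were also higher in EpCAM- replicates 3 and 4 than in 1 and 2. The part of these marker differences in the caspase values was not tested.

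Same-numbered libraries of the fractions were also set against each other. *Casp2*, *Casp4*, *Casp6* and *Casp12* were higher in the EpCAM+ library in 4 of 4 pairs. That count follows from the lack of overlap between the fractions and adds no support, so only the sizes within pairs are new. For *Casp12* the log2 CPM difference was 0.66, 1.17, 1.83 and 2.35 in the pairs numbered 1 to 4, and for *Casp4* it was 0.35, 0.79, 0.72 and 1.06. The other 2 called genes varied less, from 0.23 to 0.42 for *Casp2* and from 0.31 to 0.66 for *Casp6*. *Casp1* was higher in the EpCAM+ library in 2 of 4 pairs (log2 CPM differences -0.14, -0.45, 0.22 and 0.50), *Casp9* in 2 of 4 and *Casp8* in 1 of 4. The difference was largest in the pair numbered 4 for *Casp1*, *Casp4*, *Casp8* and *Casp12*.

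**Figure D3:**
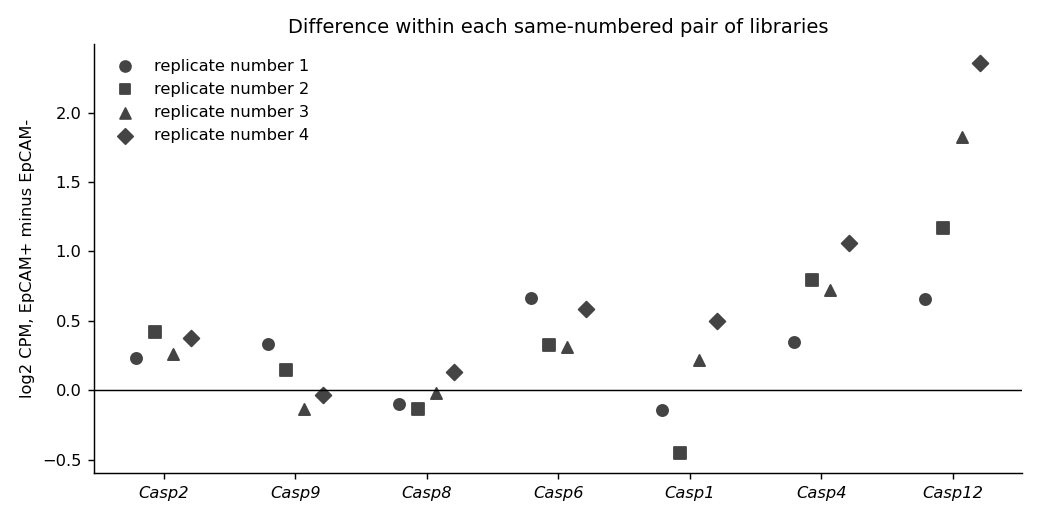
Difference in log2 CPM, EpCAM+ minus EpCAM-, within each same-numbered pair of libraries (y axis) for each caspase gene. All 4 pairs are above 0 for *Casp2*, *Casp6*, *Casp4* and *Casp12*, which follows from the lack of overlap between the fractions. The pairs of *Casp12* run from 0.66 to 2.35, while those of *Casp9*, *Casp8* and *Casp1* fall on both sides of 0.

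Levels between the genes were compared as CPM per kilobase of the deposited gene length, which equals the merged exons of each gene in GENCODE M21. In EpCAM- libraries the order was *Casp8* (65.9), *Casp1* (42.8), *Casp2* (15.0), *Casp6* (13.3), *Casp9* (3.46), *Casp4* (3.36) and *Casp12* (3.08). The ranges of *Casp2* and *Casp6*, of *Casp9* and *Casp4* and of *Casp4* and *Casp12* overlapped, and the other neighbours in the order did not. In EpCAM+ libraries the order was *Casp8* (64.3), *Casp1* (42.5), *Casp2* (18.7), *Casp6* (18.5), *Casp12* (7.91), *Casp4* (5.52) and *Casp9* (3.67 CPM per kilobase), and only *Casp2* and *Casp6* overlapped. With this length, *Casp12* thus moved from the last place to the fifth.

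These orders depend on the length used, since *Casp6* has 5584 bases of merged exons but a longest coding transcript of 1456 bases. With the length of the transcript with the longest coding part, a choice made after the data were seen, *Casp6* followed *Casp8* (70.9 in EpCAM+ and 50.8 CPM per kilobase in EpCAM- libraries), ahead of *Casp1* and *Casp2* in both fractions, and *Casp4* stood above *Casp12* (14.3 against 11.5 CPM per kilobase in EpCAM+ libraries). With the deposited FPKM, *Casp2* ranked 1 in EpCAM+ and 2 in EpCAM- libraries, and *Casp1* ranked 4 in both. The deposited FPKM imply other lengths than the deposited length column, by 0.575 for *Casp2* to 3.32 for *Casp1* relative to the median of the 7 genes, so that these ranks rest on lengths that are not given in the sources used here. *Casp12* ranked 7 in EpCAM- and 6 in EpCAM+ libraries, both with the deposited FPKM and with the transcript length. *Casp8*, *Casp1*, *Casp2* and *Casp6* took the first 4 places and *Casp4*, *Casp9* and *Casp12* the last 3 in both fractions under all 3 lengths.

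**Figure D4:**
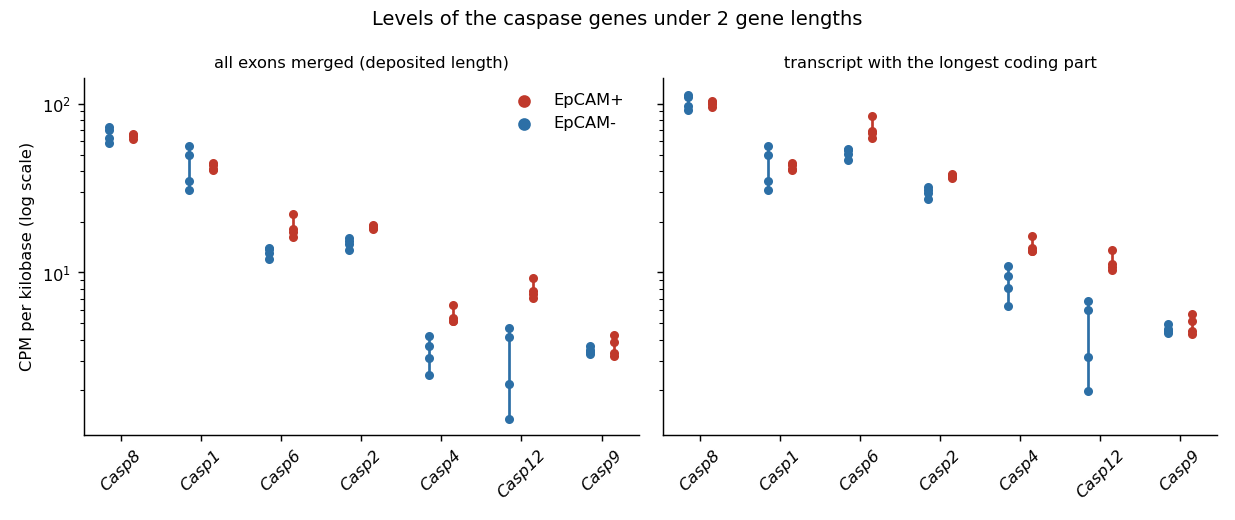
CPM per kilobase of each caspase gene (log axis) in the 4 EpCAM- libraries (blue) and the 4 EpCAM+ libraries (red), with the merged exon length on the left and the transcript with the longest coding part on the right; points are libraries and lines span their range. *Casp8* is highest in both panels, and *Casp4*, *Casp12* and *Casp9* are the lowest 3 in both.

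Across the 8 libraries, with each gene's log2 CPM centred on its mean, the members least apart were *Casp8* and *Casp9* (root mean square difference 0.145) and *Casp2* and *Casp6* (0.156), while *Casp4* and *Casp12* were 0.495 apart on this scale. The difference is also small between genes that both vary little, so a small value alone does not show a shared pattern. Among all tested protein-coding genes the nearest was *Scml4* for *Casp12* (0.0712), *Rnf215* for *Casp4* (0.0622), *Nr0b2* for *Casp1* (0.0718), *Rab33b* for *Casp6* (0.0693), *Spin1* for *Casp2* (0.0426), *Arpc4* for *Casp8* (0.0367) and *Nprl2* for *Casp9* (0.0549). After centring within each fraction, *Scml4* stayed the nearest gene to *Casp12* (0.0676) and the other 6 nearest genes changed.

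Genes next to the caspase genes did not share one direction. *Pdgfd*, a growth factor gene 795551 bases after *Casp12*, was higher in EpCAM+ libraries (log2 fold change 1.17, SE 0.27, adjusted p = 0.00667, edgeR), and *Gria4* on the other side of the cluster had too few reads to be tested. *Pla2g12a*, a phospholipase gene 5599 bases before *Casp6*, was lower (log2 fold change -1.47, adjusted p = 0.000747, edgeR), opposite to *Casp6*. *Trak2*, which lies after *Casp8*, was lower (log2 fold change -0.64, adjusted p = 0.00822, edgeR). *Cflar*, 36489 bases before *Casp8*, encodes cFLIP, the caspase-8 relative that lacks protease activity and limits it, and had a log2 fold change of 0.23 (SE 0.10, adjusted p = 0.0939, edgeR), with an adjusted p of 0.0360 when the replicate number entered as a block.

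The genes that act with these caspases were taken from 8 lists of 65 genes, of which 64 were found in the table and 56 tested. Of the 56, 13 were higher, 11 lower and 32 not called, with a median log2 fold change of 0.06. These counts are near the background of 21.8% higher and 20.8% lower over all tested genes, and so are no result about the lists as a whole. With the replicate number as a block 19 were higher and 12 lower, as all genes went from 2961 to 3465 higher and from 2818 to 3353 lower. The genes called only with the block were *Cflar*, *Naip6*, *Aim2*, *Gsdmd*, *Gbp5* and *Stk4* as higher and *Mlkl* as lower (adjusted p from 0.0230 to 0.0464, edgeR). Without EpCAM- replicate 3, 8 were higher, against 2435 over all genes.

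Around the initiators, 2 of 4 apoptosome and mitochondrial activator genes were lower in EpCAM+ libraries and 0 higher, against 20.8% and 21.8% of all tested genes. *Cycs*, the cytochrome c that nucleates the apoptosome and carries electrons in respiration, was at 325.4 ± 24.7 CPM in EpCAM+ and 500.9 ± 50.2 CPM in EpCAM- libraries (SD, n = 4 each; log2 fold change -0.62, SE 0.09, adjusted p = 0.000715, edgeR). *Htra2*, a mitochondrial protease that can counter IAP proteins, was at 59.8 ± 4.79 and 115.6 ± 19.2 CPM (log2 fold change -0.95, SE 0.12, adjusted p = 0.000349, edgeR). *Apaf1*, the apoptosome scaffold, had a log2 fold change of -0.21 (adjusted p = 0.210, edgeR). In the PIDDosome list of 3 genes, *Pidd1*, the scaffold for caspase-2, was lower (log2 fold change -0.31, SE 0.11, adjusted p = 0.0392, edgeR), opposite to *Casp2*. *Madd*, a death domain protein of TNF receptor signalling, was listed there but is not a part of the PIDDosome. It was higher (log2 fold change 0.34, SE 0.11, adjusted p = 0.0263, edgeR). The adaptor gene *Cradd* was not called.

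Of 10 genes of the death-inducing signalling complex and necroptosis, 1 was called without the block, against 42.6% of all tested genes. This was *Tnfrsf10b*, the mouse TRAIL receptor (log2 fold change 0.96, SE 0.28, adjusted p = 0.0181, edgeR), on 34 to 64 counts per EpCAM+ and 17 to 26 per EpCAM- library. With the block 2 were higher and 1 lower. The fractions did not overlap for *Fas*, *Tnfrsf10b* and *Fadd*, against 40.1% of tested genes without overlap. *Fadd*, the adaptor that recruits caspase-8, had a log2 fold change of -0.39 (adjusted p = 0.0551, edgeR), and *Ripk3*, the kinase that caspase-8 restrains, one of -0.04 (adjusted p = 0.642, edgeR).

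Of the 8 tested genes of the IAP family, whose founding members bind caspases or ubiquitinate their complexes, 4 were higher and 1 lower, against 21.8% and 20.8% of all tested genes. *Xiap*, the direct caspase inhibitor, was at 20.1 ± 0.970 CPM in EpCAM+ and 14.8 ± 1.87 CPM in EpCAM- libraries (SD, n = 4 each; log2 fold change 0.44, SE 0.11, adjusted p = 0.0106, edgeR). *Birc2* and *Birc3*, the ubiquitin ligases cIAP1 and cIAP2 of TNF signalling, were higher by 0.29 and 0.40 on the log2 scale (adjusted p = 0.0238 and 0.0239, edgeR), though the fractions overlapped for *Birc3*. *Naip5*, which carries IAP repeats but acts as a flagellin sensor, was higher (log2 fold change 0.75, SE 0.18, adjusted p = 0.00853, edgeR); reads of this gene family may be split among near-identical copies, and its value is uncertain. *Birc5*, survivin, which is known from mitosis, was lower (log2 fold change -0.36, SE 0.11, adjusted p = 0.0202, edgeR).

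Of 17 substrates of executioner caspases, 2 were higher and 5 lower, which is near the 42.6% of all tested genes called in either direction. The lamin genes *Lmna*, *Lmnb1* and *Lmnb2*, which encode the nuclear lamina, were all lower, with *Lmna*, the classical caspase-6 target, at 8.81 ± 2.40 CPM in EpCAM+ and 46.9 ± 27.7 CPM in EpCAM- libraries (SD, n = 4 each; log2 fold change -2.41, SE 0.37, adjusted p = 0.000911, edgeR). *Lmnb1* and *Lmnb2* had log2 fold changes of -0.61 and -0.32 (adjusted p = 0.0218 and 0.00369, edgeR), and the fractions overlapped for *Lmnb1*. *Parp1* (-0.28), the DNA damage sensor, and *Satb1* (-0.52), a chromatin organizer, were also lower (adjusted p = 0.00955 and 0.0188, edgeR). *Gsn*, the actin-severing gelsolin, was higher, at 75.2 ± 37.9 against 19.9 ± 4.97 CPM (log2 fold change 1.92, SE 0.35, adjusted p = 0.00188, edgeR), as was *Sptan1*, the membrane skeleton protein alpha-II spectrin (0.57, SE 0.11, adjusted p = 0.00291).

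On the inflammatory side, 7 of 11 inflammasome sensor and adaptor genes could be tested, and 2 were higher and 1 lower, also near the 42.6% of all tested genes. *Nlrp1b*, a sensor that feeds caspase-1, was higher (log2 fold change 2.17, SE 0.59, adjusted p = 0.0138, edgeR), but on only 17 to 55 counts per EpCAM+ and 2 to 13 per EpCAM- library, and its reads could be shared with the paralog *Nlrp1a*. *Nek7*, a partner of NLRP3, was higher by 0.30 on the log2 scale (adjusted p = 0.0187, edgeR), while *Nlrp3* itself had 0 to 14 counts in any library and was not tested. *Nlrc4*, the adaptor of the NAIP sensors, was lower (log2 fold change -1.42, SE 0.31, adjusted p = 0.00473, edgeR). *Pycard*, the ASC adaptor of caspase-1, was at 78.1 ± 13.5 and 76.3 ± 22.5 CPM (SD, n = 4 each; log2 fold change 0.03, adjusted p = 0.903, edgeR) and, like *Casp1*, was not called.

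*Il18*, a cytokine precursor that caspase-1 cleaves, was at 20.7 ± 3.05 CPM in EpCAM+ and 5.67 ± 1.97 CPM in EpCAM- libraries (SD, n = 4 each), a 3.64-fold difference (log2 fold change 1.86, SE 0.23, adjusted p = 0.000330, edgeR). The other tested substrate, *Gsdmd*, the pore-forming gasdermin D, had a log2 fold change of 0.22 (SE 0.10, adjusted p = 0.105, edgeR), with an adjusted p of 0.0230 when the replicate number was a block. *Il1b* had 2 to 24 counts per library, and *Il1a* and *Il33* at most 2, so that none of these cytokine genes was tested. Of 5 tested interferon-induced GTPase genes of the noncanonical pathway of caspase-11, 2 were higher and 1 lower. The shares over all tested genes were 21.8% and 20.8%. *Gbp2* was higher, at 47.2 ± 6.60 against 23.8 ± 5.58 CPM (SD, n = 4 each), with a log2 fold change of 0.99 (SE 0.16, adjusted p = 0.00108, edgeR). *Gbp7* was higher by 0.32 on the log2 scale (adjusted p = 0.0172, edgeR). *Gbp3* was lower by 0.38 (adjusted p = 0.0321, edgeR), with overlapping fractions. *Gbp5* (called only with the block, adjusted p = 0.0265, edgeR) and *Irgm1* were not called, and *Irgb10* was not found under that symbol.

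**Figure D5:**
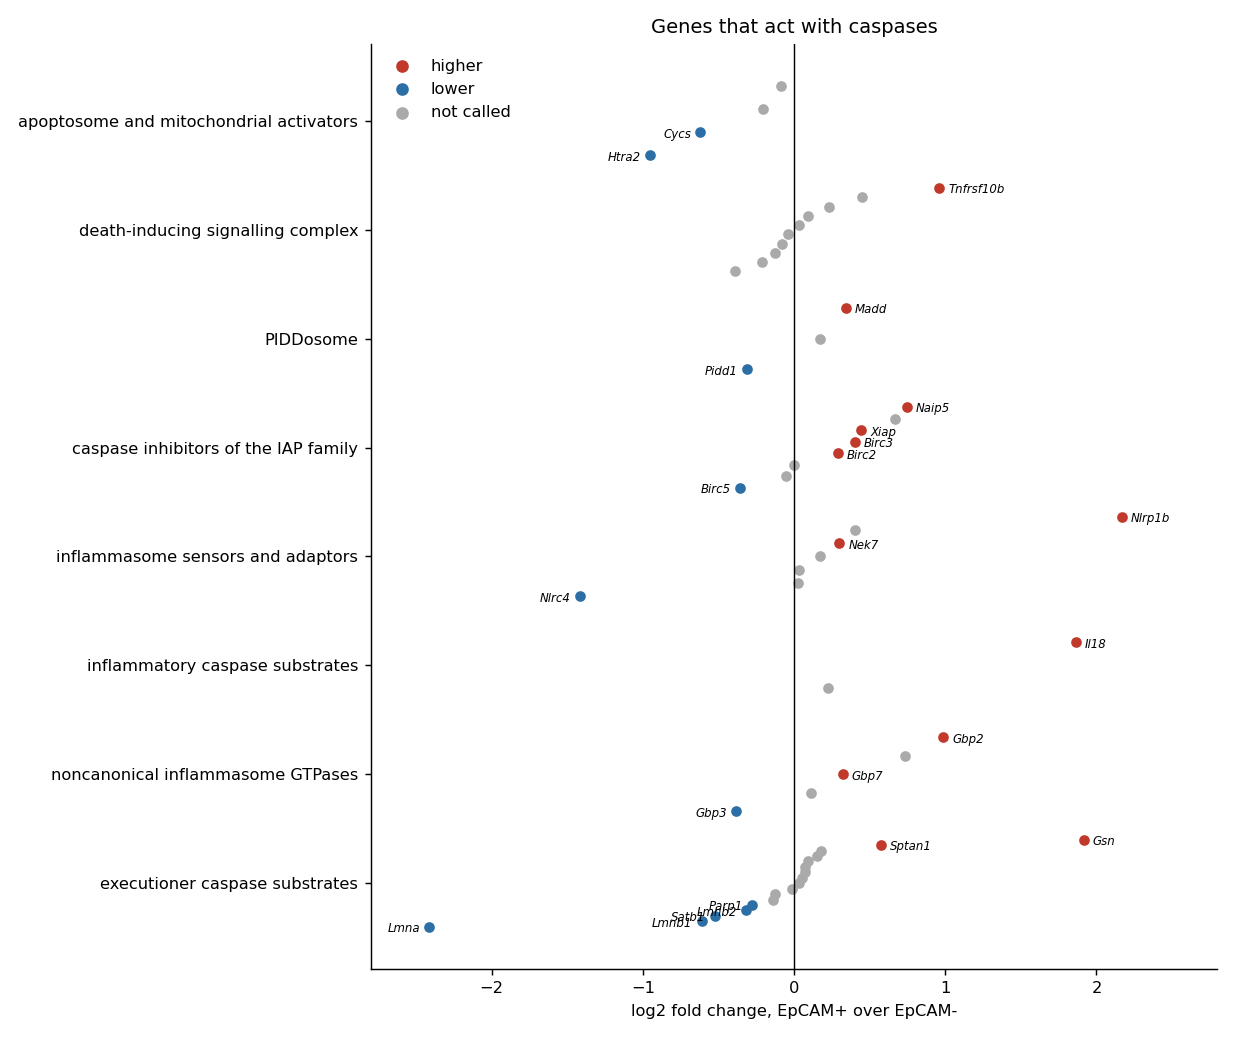
Log2 fold change, EpCAM+ over EpCAM- (x axis), of the 56 tested genes that act with caspases, by list (y axis); red and blue points with names passed an adjusted p under 0.05 as higher or lower, and grey points did not. Both apoptosome genes that were called lie left of 0 (*Cycs* at -0.62, *Htra2* at -0.95), 4 of the 5 called IAP genes lie right of it, and *Nlrp1b* at 2.17 and *Lmna* at -2.41 mark the ends.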

How the data were processed

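The authors amplified RNA with SMART-Seq v4, made libraries from 1 ng of cDNA and sequenced 150-bp paired ends. Per the submitters' processing notes, STAR 2.6.1d, featureCounts 1.5.0-p3, DESeq2 1.20.0 and build GRCm38.p6 were used; annotation release, strandedness and handling of multimapping reads are not given in the sources used here. The authors deposited whole-number counts per gene without normalization, which all tests used, and FPKM, which entered only an alternative order of levels. The deposited table also holds the gene length and the results of the authors' comparisons (of the fractions and of single same-numbered libraries), which were not used.

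Genes were filtered with filterByExpr, scaled by TMM and tested two-sided with edgeR 4.0.16 (quasi-likelihood, R 4.3.3, limma 3.58.1), with Benjamini-Hochberg adjustment over 13560 genes. Standard errors came from the F statistic, and 95% intervals from the t distribution. The log2 CPM used a prior count of 2. Promoter windows came from RefSeq (GRCm38.p6) and gene models from GENCODE M21. Figures used matplotlib 3.10.9. The procedure was also run on simulated data, whose settings and outcome are not given here, so that run adds no support to the calls.

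The replicate numbers appear to pair the samples. Same-numbered libraries deviated together from their fraction means across genes (r from 0.205 to 0.356 in 4 pairs, against -0.216 to 0.0396 in 12 others). Genes are not independent replicates. The main tests did not use this pairing. The sources do not say what the numbers share, nor whether each library came from a single mouse or a pool, so p-values measure the spread between these samples. Libraries of a fraction differed beyond sampling noise (chi-square over its degrees of freedom at least 9.8 in 12 comparisons). The caspase genes, the lists of partner genes and markers, and the tests were chosen with earlier results of these data known. The rule named all 7 caspase genes, list genes past the threshold, the nearest protein-coding gene by root mean square difference and the adjacent genes. List genes named without a call were chosen after their values were seen. Other caspase genes are not reported here. Alternatives were DESeq2 1.42.0, other scalings and filters, protein-coding genes alone, the replicate block and each library left out.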

Additional observations from a re-analysis of the deposited data

How the results depend on the processing

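*Casp2*, *Casp4*, *Casp6* and *Casp12* were called higher, and 0 caspase genes lower, under DESeq2, 3 other scalings, 2 other filters, protein-coding genes alone, the replicate block and all 8 fits that each left out 1 library. With the replicate block the log2 fold change of *Casp12* was 1.46 and that of *Casp4* 0.73, and it changed no call of a caspase gene. Among the caspase genes, the sign turned for *Casp1* and *Casp8*, both uncalled. The log2 fold change of *Casp1* turned to 0.07 with upper-quartile scaling and with library totals (0.0685 and 0.0665), 0.01 with at least 10 counts in every library (0.0108) and 0.02 with the replicate block (0.0239), and ran from -0.15 to 0.14 over the fits without 1 library. That of *Casp8* turned to 0.05 with upper-quartile scaling (0.0501) and library totals (0.048), and ran from -0.094 to 0.0048 without 1 library. Those 2 scalings moved the middle log2 fold change over all tested genes to 0.107 and 0.105, in place of 0.02, and the calls over all genes at 3642 higher and 2083 lower, and at 3476 and 2066, against 2961 and 2818. The number of partner genes called higher ran from 8 (without EpCAM- replicate 3) to 16 when 1 library was left out. Of 28 ranks by level, 21 moved with the length used. The cause of these shifts was not tested. *Casp12* in EpCAM- replicate 4 (71 counts) is the shallowest value of a caspase gene.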
